A study of Mus musculus with 11 samples.

Results

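Interferons signal through receptors of the class II cytokine receptor family and the JAK and STAT proteins attached to them, and 9 genes of this machinery were followed in the lacrimal glands of NOD mice: *Ifnar1*, *Ifnar2*, *Ifngr1*, *Ifngr2*, *Ifnlr1*, *Il10rb*, *Jak1*, *Tyk2* and *Stat2*. They were taken by name from a table of 19058 genes, and all 9 were among the 13937 genes abundant enough in WT glands to be tested. RNA from the whole lacrimal gland was sequenced from 3 WT, 5 *Tlr7* KO and 3 *Ifnar1* KO mice, with 1 library per mouse. All mice were males on the NOD background, a strain in which the lacrimal gland becomes infiltrated by lymphocytes. The *Tlr7* KO mice carried a small deletion in *Tlr7*, which encodes an endosomal sensor of single-stranded RNA, made by CRISPR/Cas9 in NOD embryos and therefore represent 1 edited allele. The *Ifnar1* KO mice carried the em16 allele of *Ifnar1* on both chromosomes. WT and *Tlr7* KO mice were 20 to 22 weeks old, and the age of the *Ifnar1* KO mice is not given in the sources used here, so age and the *Ifnar1* genotype cannot be told apart. The authors had left out a further *Ifnar1* KO mouse, whose expression profile and gland inflammation resembled those of WT, so the *Ifnar1* KO group was selected in part for its difference from WT. This bears on every comparison with *Ifnar1* KO, including the counts of groups that do not overlap. Each library held 20512315 to 28814250 counts assigned to genes. Levels are given as CPM, the count scaled to library size after TMM (a correction for differences in RNA composition between libraries), and a floor of 3 counts corresponded to 0.082 to 0.158 CPM, which covers counting error only.

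Type I IFN binds a receptor built from IFNAR1 and IFNAR2, whose associated kinases TYK2 and JAK1 phosphorylate STAT2 and other STAT proteins. With IRF9, STAT2 is part of a complex that binds the interferon-stimulated response element of target genes. IFN-γ instead binds IFNGR1 and IFNGR2, uses JAK1 and JAK2, and acts on genes that hold the gamma-activated site. Type III IFN uses IFNLR1, which is found mainly on epithelial cells, with IL10RB, a chain that the IL-10 and IL-22 receptors share.

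Of the 9 genes, 4 lie next to each other on chromosome 16 (GRCm38, GENCODE release M21). *Ifnar2* spans 91372783 to 91405589, *Il10rb* 91406164 to 91425834, *Ifnar1* 91485238 to 91507441 and *Ifngr2* 91547072 to 91565623, all on the plus strand. *Ifngr1* (19591949 to 19610229, plus strand) and *Stat2* (128270559 to 128292849, plus strand) are on chromosome 10, *Ifnlr1* (135686287 to 135708181, plus strand) and *Jak1* (101152367 to 101265282, minus strand) on chromosome 4, and *Tyk2* (21104068 to 21131243, minus strand) on chromosome 9. The gene model *Gm21970* overlaps *Ifnar2* and *Il10rb* on their own strand, and the processed pseudogene *Gm12785* overlaps *Jak1* on its own strand. On the opposite strand, *Raver2* and the small nuclear RNA gene *Gm24468* overlap *Jak1*, and the antisense gene *1700084C06Rik* overlaps *Tyk2*. Whether the counting used strand, which bears on the overlaps on opposite strands, is not given in the sources used here. The counts of these 4 members are uncertain to the extent that reads were shared.

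RefSeq (GRCm38.p6) promoters, from 250 bases before to 50 bases after the start of a gene, were available for 8 of the 9 genes. They were searched on both strands for the core of the interferon-stimulated response element, written as GAAA and a second GAAA with any 2 bases in between, and for TTCNNNGAA, the gamma-activated site, whose letters read the same on both strands. *Stat2* held the only match to the response element, at position -222 from the start of the gene, and 1131 of 32851 promoters of the same length (3.44%) hold this motif. *Ifnar2* held the gamma-activated site at position -214 and *Ifnar1* held it at -5, as TTCACGGAA, and 8.3% of promoters hold this motif. The other 5 promoters held no match for these letters. The bases before the start of *Stat2*, the member that differed between the KO strains, and of *Ifnar2*, which was lower than WT in both, are shown 5′ to 3′ with the match in capitals, at chr10:128270248-128270497 and chr16:91372533-91372782 on the plus strand:
Stat2: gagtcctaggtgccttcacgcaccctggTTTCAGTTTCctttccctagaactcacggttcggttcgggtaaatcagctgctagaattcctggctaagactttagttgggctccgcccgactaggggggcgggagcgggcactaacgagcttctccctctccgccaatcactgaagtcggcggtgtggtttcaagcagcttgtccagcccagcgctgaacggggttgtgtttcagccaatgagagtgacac
Ifnar2: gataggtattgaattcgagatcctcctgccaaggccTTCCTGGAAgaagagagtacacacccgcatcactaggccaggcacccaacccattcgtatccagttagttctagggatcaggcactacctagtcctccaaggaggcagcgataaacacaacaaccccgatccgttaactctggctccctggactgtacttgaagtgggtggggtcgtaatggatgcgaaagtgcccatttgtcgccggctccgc
A match is given as a description of the sequence, and in *Stat2* it is read on the minus strand.

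Per kilobase of annotated exon, the members covered a range of levels in WT glands. *Jak1*, the kinase common to all 3 interferon families, was the most abundant at 8.51 ± 1.16 CPM per kb (SD, n = 3), followed by *Stat2* at 5.76 ± 2.80, *Ifngr1* at 5.22 ± 1.38, *Il10rb* at 4.48 ± 0.171 and *Ifngr2* at 3.68 ± 0.81 CPM per kb. *Ifnar2* (2.75 ± 0.614), *Ifnar1* (2.28 ± 0.442) and *Tyk2* (2.04 ± 0.536) followed, and *Ifnlr1* was the lowest at 1.0 ± 0.161 CPM per kb. Neighbours in this order overlapped between mice, except that the lowest *Il10rb* value (4.3) was above the highest *Ifngr2* value (4.19) and the lowest *Tyk2* value (1.43) was above the highest *Ifnlr1* value (1.18). *Jak1* was also first in *Tlr7* KO (9.21 ± 0.75, n = 5) and *Ifnar1* KO glands (7.66 ± 0.417, n = 3). *Stat2* stood second in *Tlr7* KO glands at 5.6 ± 1.58 CPM per kb, and in *Ifnar1* KO glands its 2.26 ± 0.803 was below the means of *Il10rb* (3.18 ± 0.518) and *Ifngr1* (2.72 ± 0.568).

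Some libraries stood apart. WT 2 had a summed CPM over 6 leukocyte markers (*Ptprc*, *Coro1a*, *Laptm5*, *Cd53*, *Itgb2*, *Cd52*) of 106, against 333 and 289 in WT 1 and WT 3. The sum over 4 skeletal muscle markers was 321 in WT 1, 233 in WT 2 and 226 in *Tlr7* KO 4, and at most 8.66 in the other mice. The sum over the 3 salivary gland markers in the table was 2430 in WT 3, 2090 in *Ifnar1* KO 2 and 178 in *Ifnar1* KO 1, and at most 3.01 elsewhere. Lacrimal acinar markers (*Aqp5*, *Bhlha15*, *Slc12a2*, *Pigr*) were present throughout, with sums of 632 to 776 in WT, 943 to 1010 in *Tlr7* KO and 1000 to 1200 in *Ifnar1* KO glands. The leukocyte sum was 41.2 to 112 in *Tlr7* KO and 15.2 to 58 in *Ifnar1* KO glands, and all 6 leukocyte markers were DE (adjusted p under 0.05, edgeR) and lower than in WT in both strains, against 17.4% and 12.4% of all genes tested. In *Ifnar1* KO 0 of the 6 were DE without any single one of WT 1, WT 3 and *Ifnar1* KO 1 and 3 (median log2 fold changes of -2.41 to -2.6). Those fits called 13, 103, 0 and 0 of all genes tested, so this 0 is not particular to the leukocyte markers. In *Tlr7* KO all 6 were DE whichever mouse was left out, in fits that called 2601 to 6595 of all genes tested. In whole-gland RNA, fewer cells of a type and less RNA per cell cannot be told apart.

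*Ifnar1*, the gene edited in the *Ifnar1* KO strain, was still measured there, at 0.655 of its WT level. It had 15.1, 10.5 and 15.0 CPM in the WT mice and 8.34, 9.08 and 9.63 CPM in the *Ifnar1* KO mice, or 230 to 245 counts per mouse, so these groups did not overlap. The *Ifnar1* KO mice were lower by 0.61 on the log2 scale (SE 0.174, adjusted p = 0.0485, edgeR quasi-likelihood test), so the WT level was 1.53-fold higher. This call was kept in 6 of 16 alternative analyses, with log2 fold changes from -0.96 to -0.36. In the *Tlr7* KO mice, where *Ifnar1* is intact, it had 9.95, 11.2, 9.38, 8.94 and 8.34 CPM and a log2 fold change of -0.51 against WT (SE 0.139, adjusted p = 0.022, edgeR). The KO strains did not differ detectably from each other in *Ifnar1* RNA (log2 fold change -0.09, SE 0.107, adjusted p = 0.717, edgeR). The count covers the whole gene, and where in the gene the em16 allele differs is not given in the sources used here, so the level of *Ifnar1* RNA checks neither the genotype nor the protein. *Tlr7* was at 2.94, 1.52 and 2.70 CPM in WT, 0.494 to 0.949 CPM in *Tlr7* KO and 0.251 to 0.822 CPM in *Ifnar1* KO glands, lower by 1.62 (adjusted p = 0.00364) and by 2.1 (adjusted p = 0.026) on the log2 scale than in WT in edgeR's test.

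**Figure D1:**
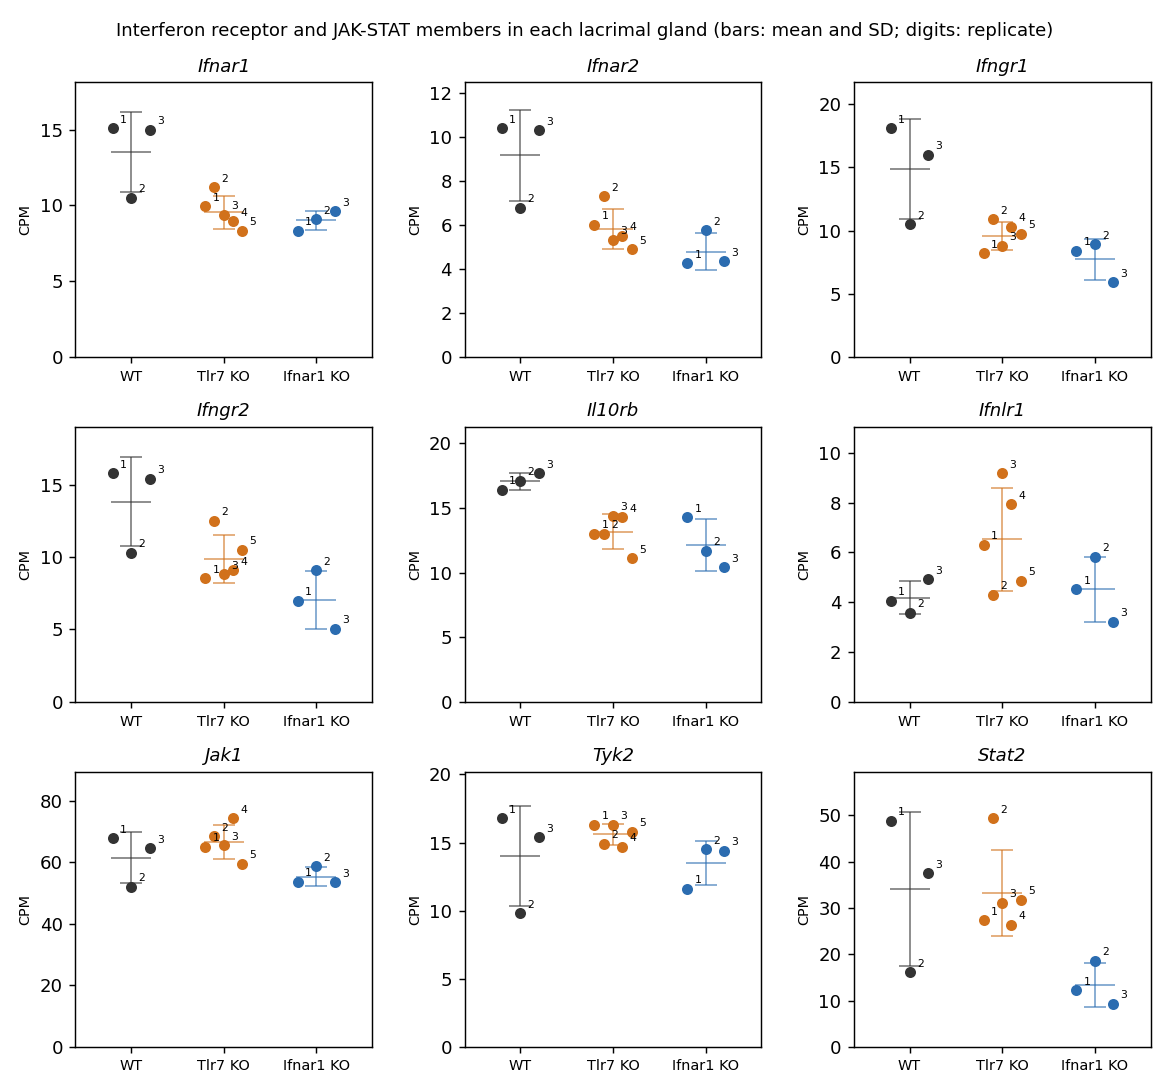
Level of the 9 genes in each lacrimal gland, in CPM after TMM scaling, with groups on the x axis, digits naming the replicate, and bars for the group mean and SD. The 5 *Tlr7* KO and 3 *Ifnar1* KO mice had at most 14.4 CPM of *Il10rb* and the 3 WT mice at least 16.4, whereas the *Tyk2* values of the groups overlapped between WT and each KO strain.

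In the comparison of *Tlr7* KO with WT glands, which addresses the dependence of the pathway's RNAs on TLR7, 5 of the 9 genes were DE and all 5 were lower in *Tlr7* KO (edgeR, adjusted p under 0.05), while 32.7% of all genes tested were DE and 17.4% were DE and lower. These 5 were the chains of the type I receptor (*Ifnar1*, *Ifnar2*), those of the IFN-γ receptor (*Ifngr1*, *Ifngr2*) and *Il10rb*. The kinases *Jak1* and *Tyk2*, the transcription factor *Stat2* and the epithelial receptor chain *Ifnlr1* were not DE. At an unadjusted p under 0.05 (edgeR) the count was 6, the sixth being *Ifnlr1*, and 6251 of all 13937 genes tested passed there. Over the 9 genes the log2 fold changes had a median of -0.37, against -0.0373 over all genes tested. In *Ifnar1* KO glands, compared with the same WT mice to ask which RNAs depend on the type I receptor, again 5 of the 9 were DE and lower, against 19.2% of all genes DE and 12.4% DE and lower, and they were the same 5 receptor genes. Their median over the 9 was -0.61, against -0.017 over all genes. Because both comparisons use the same 3 WT mice, they are not independent of each other.

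*Ifnar2*, the chain of the type I receptor that was intact in every mouse, had 10.4, 6.79 and 10.3 CPM in WT, 6.01, 7.30, 5.32, 5.52 and 4.91 CPM in *Tlr7* KO and 4.25, 5.75 and 4.35 CPM in *Ifnar1* KO glands. Only *Tlr7* KO 2 reached into the WT range, just above WT 2. Its log2 fold change against WT was -0.66 in *Tlr7* KO (SE 0.173, adjusted p = 0.0182) and -0.96 in *Ifnar1* KO (SE 0.219, adjusted p = 0.0285) by edgeR, so that its WT level was 1.58-fold and 1.95-fold higher.

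*Ifngr1*, the ligand-binding chain of the IFN-γ receptor, had 18.1, 10.5 and 16 CPM in WT, 8.19, 10.9, 8.81, 10.3 and 9.76 CPM in *Tlr7* KO and 8.4, 8.93 and 5.90 CPM in *Ifnar1* KO glands. All *Ifnar1* KO values were below all WT values, and in *Tlr7* KO only mouse 2 exceeded WT 2. The log2 fold change was -0.64 in *Tlr7* KO (SE 0.168, adjusted p = 0.0185, edgeR) and -0.97 in *Ifnar1* KO (SE 0.238, adjusted p = 0.0341, edgeR). *Ifngr2*, the signalling chain that carries JAK2, had 15.8, 10.3 and 15.4 CPM in WT, 8.53, 12.5, 8.81, 9.10 and 10.5 CPM in *Tlr7* KO and 6.98, 9.08 and 5.06 CPM in *Ifnar1* KO glands. *Tlr7* KO 2 and 5 were above WT 2, while the *Ifnar1* KO mice did not overlap with WT. Its log2 fold change was -0.50 in *Tlr7* KO (SE 0.168, adjusted p = 0.0479, edgeR), and this call was kept in 7 of 18 alternative analyses. In *Ifnar1* KO it was -1.0 (SE 0.247, adjusted p = 0.0339, edgeR), a WT level 2-fold higher.

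*Il10rb*, the chain shared by the IL-10, IL-22 and type III IFN receptors, differed from the other receptor genes in that WT 2 was as high as WT 1 and WT 3. It had 16.4, 17.1 and 17.7 CPM in WT, 13.0, 13.0, 14.4, 14.3 and 11.1 CPM in *Tlr7* KO and 14.3, 11.7 and 10.4 CPM in *Ifnar1* KO glands. It was the only member whose *Tlr7* KO and WT values did not overlap, which 30.8% of all genes tested also showed (14.2% with the *Tlr7* KO lower). Its log2 fold change was -0.37 in *Tlr7* KO (SE 0.0914, adjusted p = 0.0139, edgeR) and -0.52 in *Ifnar1* KO (SE 0.133, adjusted p = 0.0372, edgeR). In *Ifnar1* KO against WT, all 5 DE receptor genes were without overlap, a pattern of 41.8% of all genes tested (21.1% with the *Ifnar1* KO lower).

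*Ifnlr1*, the specific chain of the type III receptor, did not follow the other receptors. It had 4.07, 3.58 and 4.92 CPM in WT, 6.31, 4.30, 9.19, 7.95 and 4.86 CPM in *Tlr7* KO and 4.53, 5.83 and 3.22 CPM in *Ifnar1* KO glands. In 3 of the 5 *Tlr7* KO mice it was above every WT mouse, and the estimate of 0.63 (SE 0.252, adjusted p = 0.0805, edgeR) missed the threshold. Without *Tlr7* KO 2 it was DE and higher at 0.75 (adjusted p = 0.0353, edgeR), which made it the sixth gene DE there, opposite in sign to the other 5. In *Tlr7* KO against WT, *Ifnlr1* was called in 2 of 18 alternative analyses. Their log2 fold changes were 0.12 to 0.84, with an adjusted p of up to 0.791 (edgeR). The *Ifnar1* KO estimate was 0.08 (SE 0.245, adjusted p = 0.833, edgeR), with values on both sides of the WT range.

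In the main comparisons with WT, the kinases stayed within the spread between mice. *Jak1* had 67.8, 52.0 and 64.6 CPM in WT, 65.1, 68.4, 65.5, 74.4 and 59.5 CPM in *Tlr7* KO and 53.7, 58.8 and 53.5 CPM in *Ifnar1* KO glands, with log2 fold changes against WT of 0.11 (SE 0.107, adjusted p = 0.449, edgeR) and -0.17 (SE 0.135, adjusted p = 0.379, edgeR). *Tyk2* had 16.8, 9.82 and 15.4 CPM in WT, 16.3, 14.9, 16.3, 14.7 and 15.8 CPM in *Tlr7* KO and 11.6, 14.5 and 14.4 CPM in *Ifnar1* KO glands, with log2 fold changes of 0.15 (SE 0.151, adjusted p = 0.476, edgeR) and -0.08 (SE 0.215, adjusted p = 0.825, edgeR). For both kinases the WT mice spanned most of the range, with WT 2 the lowest of the 11 mice.

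*Stat2*, the partner of IRF9 in the type I complex and itself a target of type I IFN, varied most between mice. It had 48.8, 16.1 and 37.5 CPM in WT, 27.3, 49.4, 31.1, 26.4 and 31.8 CPM in *Tlr7* KO and 12.2, 18.6 and 9.33 CPM in *Ifnar1* KO glands. WT 2 lay within the *Ifnar1* KO range, and the *Tlr7* KO mice lay within the range of the WT mice but for mouse 2. The log2 fold change was -0.05 in *Tlr7* KO (SE 0.324, adjusted p = 0.928, edgeR) and -1.38 in *Ifnar1* KO (SE 0.414, adjusted p = 0.0557, edgeR), the latter -1.72 (adjusted p = 0.0067, edgeR) without WT 2. It was also DE in *Ifnar1* KO by DESeq2 (adjusted p = 0.00537), in a single edgeR fit of all 11 mice (adjusted p = 0.0162) and in the other deposited counts (adjusted p = 0.0483, edgeR). In all, *Stat2* was called in *Ifnar1* KO against WT in only 5 of 16 alternative analyses. Their log2 fold changes were -1.77 to -1.04, with an adjusted p of up to 0.177 (edgeR).

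**Figure D2:**
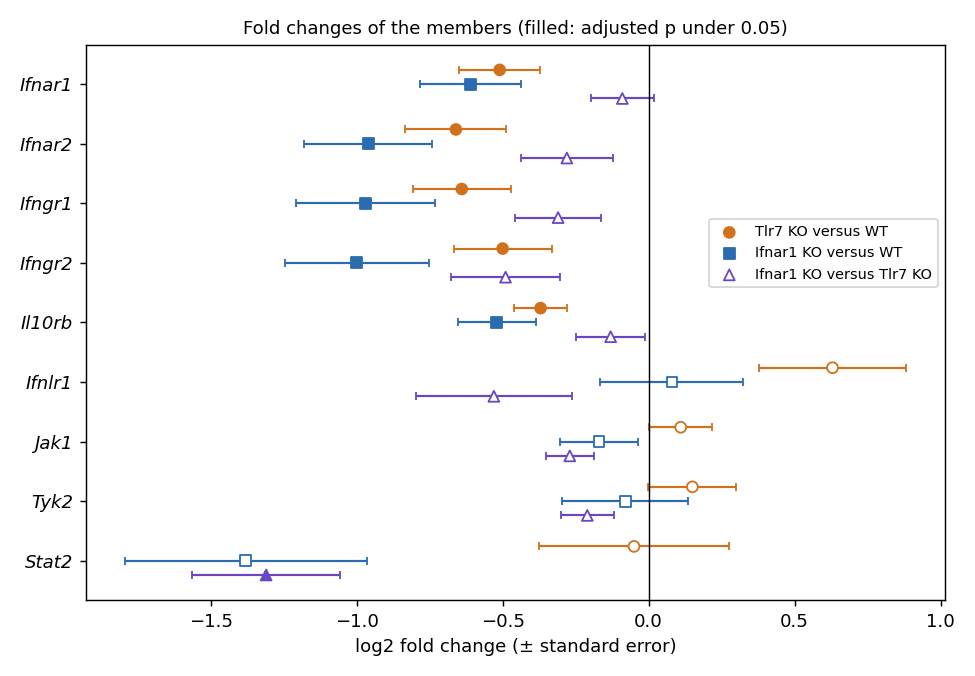
Log2 fold change of each gene on the x axis, with standard errors as bars and a filled symbol for an adjusted p under 0.05 (edgeR). The 5 receptor genes *Ifnar1*, *Ifnar2*, *Ifngr1*, *Ifngr2* and *Il10rb* lie at -0.37 to -1.0 against WT in both KO strains, and *Stat2* is the only filled symbol in the comparison of the KO strains, at -1.31.

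Compared with each other, the KO strains differed in 1 of the 9 genes, against 1.79% of all genes tested (0.926% DE and lower in *Ifnar1* KO). *Stat2* was 2.48-fold higher in *Tlr7* KO than in *Ifnar1* KO glands (log2 fold change -1.31, SE 0.254, adjusted p = 0.0342, edgeR), and its values did not overlap. The lowest *Tlr7* KO mouse, at 26.4 CPM, was above the highest *Ifnar1* KO mouse, at 18.6 CPM. *Jak1* and *Tyk2* did not overlap between the KO strains either, with log2 fold changes of -0.27 (SE 0.0826, adjusted p = 0.142 by edgeR and 0.0465 by DESeq2) and -0.21 (SE 0.0898, adjusted p = 0.281, edgeR), and 10.7% of all genes tested showed no overlap here (5.47% with the *Ifnar1* KO lower). The receptor genes were not separated, from *Ifnar1* at -0.09 to *Ifnlr1* at -0.53 (adjusted p = 0.717 and 0.354, edgeR). All 9 estimates were lower in *Ifnar1* KO, with a median of -0.28 against -0.00107 over all genes. Of the 9, 4 had an unadjusted p under 0.05 (edgeR), as did 2270 of all 13937 genes tested. In exact two-sided permutation tests of the 27 single comparisons, the smallest p the design allows is 0.0179 for 3 mice against 5 and 0.1 for 3 against 3, and no value passed after adjustment over the 27 (lowest adjusted p = 0.138).

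The call for *Stat2* between the KO strains was kept in 10 of 18 alternative analyses, with log2 fold changes from -1.62 to -1.11 and adjusted p from 5.08e-06 to 0.137. Without *Ifnar1* KO 1 it was -1.24 (adjusted p = 0.137, edgeR) and without *Ifnar1* KO 3 it was -1.11 (adjusted p = 0.117, edgeR), and without *Tlr7* KO 1, 3, 4 or 5 it was -1.39 to -1.32 with an adjusted p of 0.0523 to 0.074. Without *Ifnar1* KO 2, whose salivary gland marker sum was the highest of the *Ifnar1* KO mice, *Ifngr2* was also DE between the KO strains (log2 fold change -0.71, adjusted p = 0.0494, edgeR). The calls against WT, of the receptor genes as of all genes tested, also rested on single mice. Without WT 3, the WT library with salivary gland markers, 0 of the 9 genes were DE in either comparison with WT, and the log2 fold changes of the 5 receptor genes were -0.35 to -0.58 in *Tlr7* KO and -0.50 to -0.93 in *Ifnar1* KO. In the same fits 2601 and 103 of all genes tested were DE, against 4564 and 2677 with every mouse. Without WT 1 the counts were 1 and 0, with 2735 and 13 of all genes tested. Without *Tlr7* KO 3 or 4 the count in *Tlr7* KO was 3, with 3293 and 3538 of all genes tested. In *Ifnar1* KO it was 2 without *Ifnar1* KO 2, with 1590 of all genes tested. It was 0 without *Ifnar1* KO 1 or 3, where 0 of all genes tested were DE, so this 0 is not particular to the 9 genes. Without WT 2 the counts in *Tlr7* KO and *Ifnar1* KO were 5 and 6, *Stat2* being the sixth, with 6595 and 4643 of all genes tested. The receptor genes then reached -0.84 in *Tlr7* KO and -1.18 in *Ifnar1* KO.

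The leukocyte markers moved with the receptor genes across mice. Over the 11 mice, the correlation of log2 CPM with the log2 leukocyte sum was 0.968 for *Ifnar2*, 0.967 for *Ifngr2*, 0.956 for *Ifngr1*, 0.854 for *Ifnar1* and 0.713 for *Il10rb*. It was 0.752 for *Stat2*, 0.422 for *Jak1*, 0.182 for *Tyk2* and -0.111 for *Ifnlr1*. These are descriptions of points that share libraries and group differences, and the part of the leukocyte markers in the results was not tested. B cell markers (8 of 8 in the table) summed to 79.9 to 280 CPM in WT, 5.58 to 50.5 in *Tlr7* KO and 2.43 to 20.2 in *Ifnar1* KO glands, and T cell markers (8 of 8) to 21.8 to 69.9, 5.2 to 26 and 1.63 to 13.5. Myeloid markers (8 of 8) summed to 183 to 334, 161 to 189 and 52.4 to 147 CPM. Plasma cell markers (6 of 6) summed to 306 to 363 CPM in WT, 97.3 to 160 in *Tlr7* KO and 200 to 370 in *Ifnar1* KO glands. Myoepithelial markers (4 of 4) summed to 70.1 to 89, 39.3 to 51.8 and 55 to 57.3 CPM, so these sums were lower in both KO strains without overlap. By gene, 3 of the 4 were lower without overlap in each strain, against 14.2% and 21.1% of all genes tested. All 4 were DE and lower in *Tlr7* KO and 1 in *Ifnar1* KO (edgeR), against 17.4% and 12.4% of all genes tested. In *Ifnar1* KO all 4 had an unadjusted p under 0.05, as did 5235 of all genes tested, and 0 were DE between the KO strains. Duct cell sums (6 of 6) of 438 to 532, 562 to 652 and 560 to 611 CPM were higher in the KO strains. By gene, 1 of the 6 was DE and higher and 1 DE and lower in *Tlr7* KO (edgeR). In *Ifnar1* KO 0 were DE and higher and 1 was DE and lower (edgeR), and 32.7% and 19.2% of all genes tested were DE. Groups did not overlap for 2 and 4 of the 6, in either direction, against 30.8% and 41.8% of all genes tested. Adipocyte sums (4 of 4) were 9.03 to 12.4, 2.92 to 17.7 and 2.01 to 7.77 CPM, and those of endothelial cell and fibroblast markers overlapped between WT and each KO strain. By gene, 2 of 5 endothelial and 2 of 4 fibroblast markers were DE and lower in each strain (edgeR). Of all genes tested 17.4% and 12.4% were DE and lower. In *Tlr7* KO 1 endothelial marker was DE and higher (edgeR). The part of these cell types was not tested either. *Ifngr2* followed the leukocyte sum closely, from 5.06 CPM in *Ifnar1* KO 3, where the sum was 15.2, to 15.8 CPM in WT 1, where it was 333. *Stat2* did so less closely, since *Tlr7* KO 2 and WT 2 had nearly equal leukocyte sums (112 and 106) and 49.4 and 16.1 CPM of *Stat2*.

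**Figure D3:**
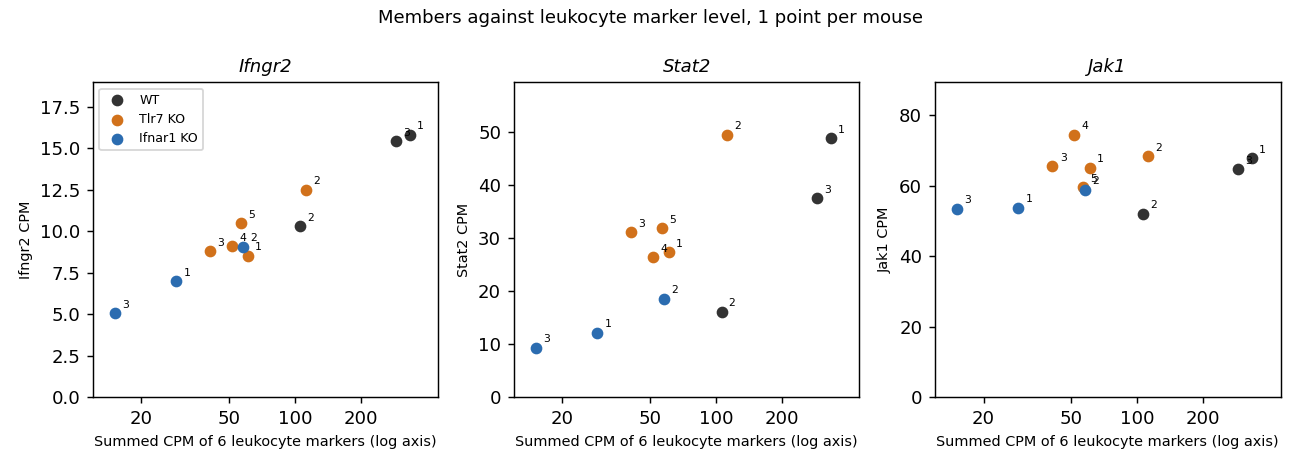
CPM of *Ifngr2*, *Stat2* and *Jak1* (y axis) against the summed CPM of 6 leukocyte markers (x axis, log scale), 1 point per mouse, with digits naming the replicate. *Ifngr2* climbs with the leukocyte sum from 5.06 to 15.8 CPM, *Stat2* differs between *Tlr7* KO 2 and WT 2 at nearly the same sum, and *Jak1* stays between 52.0 and 74.4 CPM.

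Among themselves, the chains of the type I and IFN-γ receptors were correlated over the 11 mice, at 0.744 to 0.951. The correlation of log2 CPM was 0.951 between *Ifngr1* and *Ifngr2*, 0.943 between *Ifnar1* and *Ifnar2*, and 0.904 and 0.899 between *Ifnar2* and the IFN-γ receptor chains, and lower between *Ifnar1* and *Ifngr1* (0.802) and *Ifngr2* (0.744). *Il10rb* was at 0.63 to 0.74 with these 4 genes, and *Ifnlr1* was at -0.3 to 0.0469 with the other receptor genes. *Jak1* was closest to *Stat2* (0.791) and *Tyk2* to *Jak1* (0.689).

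Among the 7503 genes tested with a mean of at least 5 CPM, those most like each member over the 11 mice were named by the correlation of log2 CPM. For *Ifngr2* they were *Tap1* (0.996), the peptide transporter of antigen presentation, *Uba7* (0.992), the activating enzyme for ISG15, and *Nlrc5* (0.992), the transactivator of MHC class I genes. For *Stat2* they were *Rnf31* (0.990), *Parp12* (0.981) and the DNA exonuclease gene *Trex1* (0.978). *Ifnar2* was closest to *Sipa1* (0.992), *Arhgap45* (0.986) and the leukocyte kindlin gene *Fermt3* (0.985), *Ifngr1* to *Tgfbi* (0.982), *Unc93b1* (0.982), the chaperone of endosomal Toll-like receptors, and *Birc3* (0.975), and *Ifnar1* to *Dock8* (0.962), *Dgkd* (0.96) and *Elmo2* (0.96). *Tyk2* was instead closest to *Sparc* (0.956), *Scd1* (0.922) and the collagen gene *Col3a1* (0.912), *Jak1* to *Col4a1* (0.901), *Il10rb* to *Epc1* (0.952) and *Ifnlr1* to *Rad50* (0.89).

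The lower levels of the 4 receptor genes on chromosome 16 were compared with the genes around them. Of the 10 nearest tested genes, 5 on each side (*Urb1*, *Eva1c*, *Cfap298*, *Synj1* and *Paxbp1* before, *Tmem50b*, *Gm15964*, *Dnajc28*, *Gart* and *Son* after), 0 were DE in any of the 3 comparisons by edgeR and by DESeq2, with 1 at an unadjusted p under 0.05 in each, and of all genes tested 32.7%, 19.2% and 1.79% were DE by edgeR. An unadjusted p under 0.05 was reached by 6251, 5235 and 2270 of all 13937 genes tested (edgeR). Against WT, the neighbours had a median of -0.19 in *Tlr7* KO and -0.2 in *Ifnar1* KO, whereas the receptor genes of the run were at -0.66, -0.37, -0.51 and -0.50 in *Tlr7* KO and at -0.96, -0.52, -0.61 and -1.0 in *Ifnar1* KO in their order along the chromosome. *Gart*, a purine synthesis gene, had the highest estimates of the neighbours, 0.29 in *Tlr7* KO (adjusted p = 0.086, edgeR) and 0.34 in *Ifnar1* KO (adjusted p = 0.101, edgeR). In *Tlr7* KO the estimates of *Gm15964* (-1.20, SE 0.78), *Eva1c* (-0.56, SE 0.309) and *Dnajc28* (-0.41, SE 0.293) were within or below the range of the receptor genes, with adjusted p of 0.19 to 0.307 (edgeR), whereas in *Ifnar1* KO the lowest neighbour, *Gm15964*, was at -0.41 (SE 1.09). Without WT 2 or with a GC and length trend, 1 neighbour was DE in each comparison with WT, as was 1 in *Tlr7* KO without *Tlr7* KO 5 or with library size only, and 1 in *Ifnar1* KO in a single fit of all 11 mice. Those fits called 3896 to 6595 of all genes tested in *Tlr7* KO and 3742 to 5124 in *Ifnar1* KO.

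**Figure D4:**
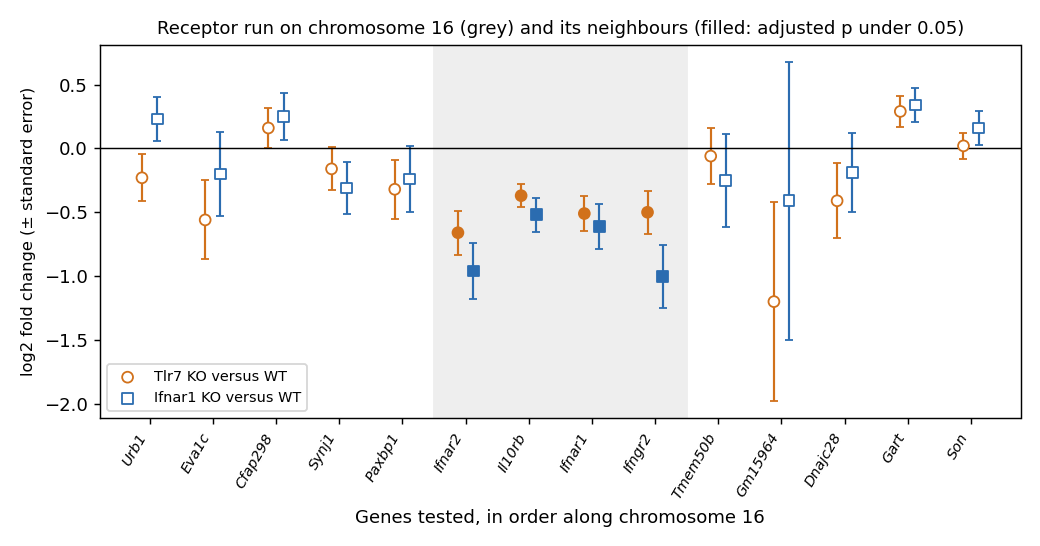
Log2 fold change with its standard error (y axis) of the tested genes in their order along chromosome 16 (x axis), with the run from *Ifnar2* to *Ifngr2* on a grey ground and filled symbols for an adjusted p under 0.05 (edgeR). The 4 genes of the run are filled in both comparisons with WT and the 10 neighbours are open.

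The other JAK and STAT genes, with *Irf9*, were also counted. Of 8 tested, 4 were DE and lower in *Tlr7* KO and 4 in *Ifnar1* KO glands by edgeR, against 17.4% and 12.4% of all genes, with *Jak2*, *Jak3* and *Stat4* in both, *Stat5b* in *Tlr7* KO and *Irf9* in *Ifnar1* KO, and with median log2 fold changes of -0.34 and -0.87. *Stat3*, which carries IL-6 and IL-10 signals, was at -0.36 in both (adjusted p = 0.098 and 0.245, edgeR), *Stat6* of the IL-4 pathway at -0.26 and -0.13 (adjusted p = 0.0635 and 0.579), and *Stat5b* at -0.32 (adjusted p = 0.0412) and -0.18 (adjusted p = 0.418). Named after their values were seen, *Jak2*, the kinase of IFNGR2, was lower by 1.11 on the log2 scale in *Tlr7* KO (adjusted p = 0.00437) and by 1.38 in *Ifnar1* KO (adjusted p = 0.023), so that it moved unlike *Jak1* and *Tyk2*. Also named after their values were seen, *Jak3* and *Stat4*, genes of lymphocyte cytokine signalling, were DE in both strains, at -1.87 and -3.03 in *Tlr7* KO and -2.62 and -3.46 in *Ifnar1* KO. Only *Irf9* was DE between the KO strains, at 14.8 ± 2.13 CPM (n = 5) in *Tlr7* KO and 5.39 ± 2.34 CPM (n = 3) in *Ifnar1* KO glands (log2 fold change -1.45, adjusted p = 0.0169, edgeR), and it was at -0.19 in *Tlr7* KO (adjusted p = 0.509, edgeR) and -1.67 in *Ifnar1* KO against WT (adjusted p = 0.0262, edgeR). *Stat2* and *Irf9* of the type I complex were therefore DE between the KO strains. Without WT 1 or without WT 3, 2 genes of this list were DE in *Tlr7* KO and 0 in *Ifnar1* KO. Those fits called 2735 and 2601 of all genes tested in *Tlr7* KO and 13 and 103 in *Ifnar1* KO. The count in *Tlr7* KO was 7 without WT 2, with 6595 of all genes tested. That in *Ifnar1* KO was 0 without *Ifnar1* KO 1 or 3, where 0 of all genes tested were DE. *Irf9* was not DE between the KO strains without *Ifnar1* KO 1 or *Tlr7* KO 5.

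The ligands were scarcely measured. Of 21 interferon genes, 1 was in the table, *Ifng*, with at most 10 counts in any mouse, which was below the limit for testing. The other deposited counts listed 19 of them, of which 17 had 0 counts in every mouse, *Ifnl3* had at most 1 and *Ifng* at most 9. The levels of type I IFN RNA were therefore not detectable at this depth. Of 6 other class II cytokine receptor genes 2 were tested. *Il10ra*, the partner of IL10RB in the IL-10 receptor, was at 11.8 ± 6.65 CPM (n = 3) in WT, 3.46 ± 1.36 CPM (n = 5) in *Tlr7* KO and 1.43 ± 0.916 CPM (n = 3) in *Ifnar1* KO glands, with log2 fold changes of -1.78 (adjusted p = 0.0137, edgeR) and -3.06 (adjusted p = 0.0254, edgeR), each further from 0 than those of *Il10rb*. *F3*, the gene of tissue factor, was at -0.64 and -1.81 (adjusted p = 0.289 and 0.0569, edgeR).

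Of 17 negative regulators of JAK-STAT signalling, 4 were DE and lower and 1 was DE and higher in *Tlr7* KO, and 4 were DE and lower in *Ifnar1* KO, with medians of -0.02 and -0.15. Of all genes tested 32.7% and 19.2% were DE (17.4% and 12.4% DE and lower), so these counts did not set the list apart. The most abundant were the phosphatase genes *Ptpn1* (0.38 and -0.15) and *Ptpn11* (-0.02 and 0.05), *Socs7* (0.14 and 0.26), all with an adjusted p of at least 0.0582 by edgeR, and *Ptpn6*, the phosphatase SHP-1 of blood cells, which was lower by 1.15 (adjusted p = 0.00884) and by 1.38 (adjusted p = 0.0295) on the log2 scale. Named after its value was seen, *Usp18*, an inhibitor at IFNAR2 that is itself a type I target, was the 1 negative regulator DE between the KO strains, at 9.05 ± 4.15 CPM (n = 5) in *Tlr7* KO and 0.88 ± 0.683 CPM (n = 3) in *Ifnar1* KO glands (log2 fold change -3.34, adjusted p = 0.0141, edgeR). *Socs1*, also named after its values were seen, was lower by 3.32 in *Ifnar1* KO than in WT (adjusted p = 0.0269, edgeR) and had -1.70 in *Tlr7* KO (adjusted p = 0.13, edgeR). In *Tlr7* KO 9 of this list were DE without WT 2, with 6595 of all genes tested. In *Ifnar1* KO 7 were DE without WT 2 and 2 without *Ifnar1* KO 2, with 4643 and 1590 of all genes tested. The count was 0 without any single one of WT 1, WT 3 and *Ifnar1* KO 1 and 3. There 13, 103, 0 and 0 of all genes tested were DE. *Usp18* was not DE between the KO strains without *Ifnar1* KO 1.

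Target genes of the receptors were counted beside them. Of 24 type I IFN target genes, 0 were DE in *Tlr7* KO against WT by edgeR, with 2 at an unadjusted p under 0.05 and 1 DE by DESeq2, and their median was -0.56. Of all 13937 genes tested 32.7% were DE in that comparison, and 6251 had an unadjusted p under 0.05 (edgeR). In *Ifnar1* KO 21 of the 24 were DE and lower, against 12.4% of all genes, with a median of -3.07, and between the KO strains 19 were DE and lower in *Ifnar1* KO, against 0.926% of all genes, with a median of -2.63 and no overlap for any of the 24 (5.47% of all genes were lower without overlap). In *Tlr7* KO 8 were DE and lower with library size only (median -1.21). There 4398 of all genes tested were DE, 97.2% of them lower, and the median of all genes was -0.536. The count was 14 without WT 2 and 2 without *Tlr7* KO 2, with 6595 and 4298 of all genes tested. Between the KO strains 4 were DE in a single fit of all 11 mice, with 93 of all genes tested. *Irf7*, the transcription factor that amplifies type I IFN production, was at 23.6 ± 11.6 CPM (n = 3) in WT, 18.1 ± 9.04 CPM (n = 5) in *Tlr7* KO and 1.42 ± 0.849 CPM (n = 3) in *Ifnar1* KO glands. *Ifi27l2a*, *Bst2* and *Ddx58*, the gene of the RNA sensor RIG-I, had log2 fold changes of -0.96, -0.48 and -0.13 in *Tlr7* KO (adjusted p = 0.118 to 0.747, edgeR) and of -3.52, -2.52 and -1.48 in *Ifnar1* KO (adjusted p = 0.0207, 0.023 and 0.0295, edgeR). *Stat2*, at -1.38 and -1.31, was less far from 0 than these medians in the 2 comparisons with *Ifnar1* KO. The counts, like those of all genes tested, rested on single mice as well. Without WT 1, *Ifnar1* KO 1 or *Ifnar1* KO 3, 0 of the 24 were DE in *Ifnar1* KO against WT. Those fits called 13, 0 and 0 of all genes tested, so this 0 is not particular to the targets. Without WT 3 there were 2, with 103 of all genes tested. Between the KO strains the count was lowest, at 5, without *Ifnar1* KO 1 and highest, at 24, without *Ifnar1* KO 2. Of all genes tested, 91 and 877 were then DE, against 250 with every mouse. It was 8 without *Ifnar1* KO 3 or *Tlr7* KO 5, 9 without *Tlr7* KO 3 and 10 without *Tlr7* KO 1, in fits that called 85 to 92 of all genes tested.

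Of 15 tested IFN-γ target genes, 11 were DE and lower in *Tlr7* KO and 14 in *Ifnar1* KO, against 17.4% and 12.4% of all genes, with medians of -1.77 and -3.25. The medians of the 6 leukocyte markers were -1.83 and -2.74, and their part in these counts was not tested. *Psmb8*, a subunit of the immunoproteasome, had 50.2 ± 21 CPM (n = 3) in WT, 13.2 ± 7.75 CPM (n = 5) in *Tlr7* KO and 5.4 ± 4.77 CPM (n = 3) in *Ifnar1* KO glands, with log2 fold changes of -1.93 (adjusted p = 0.00963, edgeR) and -3.25 (adjusted p = 0.0247, edgeR). *Igtp* (-2.01 and -4.03) and *Irf1* (-1.08 and -2.25) were DE in both, and *Irgm1* was at -1.19 in *Tlr7* KO (adjusted p = 0.0687, edgeR) and -2.88 in *Ifnar1* KO (adjusted p = 0.0256, edgeR). Between the KO strains 0 of the 15 were DE by edgeR, with 10 at an unadjusted p under 0.05 and 1 DE by DESeq2, and their median was -1.32. Of all 13937 genes tested 1.79% were DE by edgeR there, and 2270 had an unadjusted p under 0.05. Without WT 1 or without WT 3, 2 were DE in *Tlr7* KO and 0 in *Ifnar1* KO. Those fits called 2735 and 2601 of all genes tested in *Tlr7* KO and 13 and 103 in *Ifnar1* KO. Without *Tlr7* KO 1, 3 or 4 the counts in *Tlr7* KO were 4, 6 and 5, with 3324, 3293 and 3538 of all genes tested. The count there was 7 in a single fit of all 11 mice, with 4587 of all genes tested. Without *Ifnar1* KO 1 or 3 the count in *Ifnar1* KO was 0, as it was over all genes tested. Between the KO strains it was 7 without *Ifnar1* KO 2, with 877 of all genes tested. In both comparisons with WT, the median of the IFN-γ targets was further from 0 than the value of each of the 9 genes.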

How the data were processed

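Whole lacrimal glands of 3 WT, 5 *Tlr7* KO and 3 *Ifnar1* KO mice gave 1 RNA-seq library each. The authors used salmon for transcript abundance and tximport for the sums per gene, and the deposited estimated counts used here are the result for 19058 genes. Although that table is named as normalized, its totals differ between mice (20512315 to 28814250), and it was treated as counts. An alternative was the other deposited table, with counts for 39017 genes (12233586 to 16621073 per mouse), whose counter is not given in the sources used here. The authors' processing notes name HISAT2 2.1.0 and the build mm10. Columns were assigned to samples by name, and 1 further *Ifnar1* KO column without a sample was not used. The authors dropped an *Ifnar1* KO mouse that resembled WT. No 2 libraries of the same group agreed within sampling noise.

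Analyses ran in R 4.3.3 (DESeq2 1.42.0, edgeR 4.0.16, limma 3.58.1). A gene was tested where its counts summed to 30 or more in WT, using edgeR's quasi-likelihood test after TMM scaling, in a separate fit for each of 3 comparisons. Benjamini-Hochberg adjustment was over all 13937 genes tested, and genes under 0.05 were called DE. Log2 CPM had a prior count of 2. Exact two-sided permutation tests used CPM. On simulated counts for the genes of the comparison of *Tlr7* KO with WT, 68.8% of genes changed by 2-fold and 100% of those changed by 4-fold were recovered, and 46.9% and 100% for *Ifnar1* KO with WT. The simulation gave every gene the same dispersion (spread between mice beyond counting error), 0.05, and changed only genes above a low level. Spread in the data differed between genes, so these shares do not give the recovery of a particular gene here. TMM factors were 0.688 to 1.48.

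The 9 genes, the 6 pathway lists and the cell type markers were chosen with earlier results of these data known, and the lists were written from general knowledge. From the list of other JAK and STAT genes, 1 gene is not reported here. Beyond the 9 genes and *Tlr7*, the text names up to 4 genes of each list with the highest mean CPM, the 5 tested neighbours on each side of the chromosome 16 run and the genes most like each member, and says where a gene was named after its values were seen. Annotation is GENCODE release M21 on GRCm38, and promoters are from RefSeq. Alternatives were DESeq2, RLE size factors, library size only, filterByExpr, no filter, 30 counts or more in each pair of WT mice, a single fit of all 11 mice, the other table, an adjusted p under 0.01, the replicate number as a block, a GC and length trend, and each mouse left out in turn.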

Additional observations from a re-analysis of the deposited data

Results flagged for a closer look

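*Stat2* in *Tlr7* KO 2 stood far from the other mice of its group. It was at 49.4 CPM, the next mouse at 31.8 CPM, and the gap took 0.766 of the range of the group. The 9 genes were checked in this group of 5 mice, and chance sets apart about 1 group in 20. In the same mouse the leukocyte markers summed to 112 CPM, the highest of the *Tlr7* KO mice, and their part in the value was not tested. Without this mouse, the log2 fold change of *Stat2* between the KO strains was -1.12 (adjusted p = 0.0364, edgeR), and against WT it was -0.23 (adjusted p = 0.587, edgeR).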

How the results depend on the processing

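The count of DE genes among the 9 in *Tlr7* KO against WT, 5, was 3 in the other table, 0 at an adjusted p under 0.01 and 0 with the replicate number as a block, and leaving out a mouse gave 0 to 6. In *Ifnar1* KO against WT, also 5, it was 6 with DESeq2 and in a single fit of all 11 mice, both with *Stat2*, and 0 with library size only, 0 at an adjusted p under 0.01 and 0 with the block, and leaving out a mouse gave 0 to 6. Between the KO strains, 1, it was 2 with DESeq2, which added *Jak1*, 0 with library size only, 0 in a single fit of all 11 mice and 0 at an adjusted p under 0.01, and leaving out a mouse gave 0 to 2. Of all genes tested, library size only left 4398, 1339 and 170 DE in the 3 comparisons, and an adjusted p under 0.01 left 1969, 1 and 30. Leaving out a mouse left 2601 to 6595, 0 to 4643 and 85 to 877. The 5 receptor genes kept their sign against WT under every alternative run, and each was called in 6 to 15 of the alternatives that refit the test (18 in *Tlr7* KO, 16 in *Ifnar1* KO). With fewer mice or the block, fewer residual degrees of freedom were left. The block called 14 genes of all tested in *Tlr7* KO and 0 in *Ifnar1* KO, but between the KO strains it called 502 against 250 without it, *Stat2* at -1.43 (adjusted p = 0.000644, edgeR), 11 of 15 IFN-γ targets and 6 of 6 leukocyte markers, against 0 and 0 without it. Deviations of same-numbered mice correlated at -0.434 to 0.04 against WT and at 0.0818 to 0.343 between the KO strains, where mice 1 to 3 each correlated best with their own number but not every pair passed 0.1, and the numbers were not taken as pairs.

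Library size only moved the median of all genes to -0.536, -0.311 and 0.19 in the 3 comparisons, and of all DE genes 97.2%, 96.2% and 30.6% were then lower, against 53.2%, 64.8% and 51.6% after TMM scaling. The GC and length trend moved the medians to 0.122 and 0.212 against WT, with 36.2% and 41.7% of DE genes lower, and in *Tlr7* KO it left *Ifnar2* and *Ifngr1* DE and made *Ifnlr1* and *Tyk2* DE and higher. In *Ifnar1* KO it left *Ifnar1* at -0.36 (adjusted p = 0.128) and *Il10rb* at -0.28 (adjusted p = 0.196) not DE and made *Stat2* DE at -1.08 (adjusted p = 0.0479, edgeR). Genes that were not DE changed sign as follows. In *Tlr7* KO, *Jak1* and *Tyk2* were both at -0.41 with library size only, above the median of all genes, *Tyk2* was at -0.05 without WT 2, and *Stat2*, which spanned -0.38 to 0.30 when a mouse was left out, was at 0.14 with the block, 0.18 with the GC and length trend, and 0.30, 0.03, 0.02 and 0.04 without WT 1, WT 3, *Tlr7* KO 1 and *Tlr7* KO 4. In *Ifnar1* KO, *Ifnlr1* (-0.13 to 0.26 when a mouse was left out) was at -0.23 with library size only, -0.02 without WT 2 and -0.13 without *Ifnar1* KO 2, and *Tyk2* (-0.28 to 0.07) at 0.23 with the GC and length trend, 0.07 without WT 1 and 0.04 without *Ifnar1* KO 1. Between the KO strains, *Ifnar1* was at 0.09 and *Il10rb* at 0.06 with library size only. Apart from these constructions, the cause was not tested. The list and neighbour counts under these alternatives were added after the data were seen. *Ifnlr1* had 77 to 242 counts per mouse and *Jak1* 1128 to 2364, and the part of depth in their results was not tested.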
